A study of Mus musculus with 12 samples.

Results

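The colony-stimulating factor genes Csf1, Csf2 and Csf3 were examined together with the cytokine genes Il34 and Il23a in mouse glomeruli exposed to TNF. The 5 genes were chosen by name. All probe sets that the platform annotation gives to them alone were taken, and these were 8 of the 45037 probe sets without controls. Csf1 had 4 of them and each of the other genes had 1. Each of the 5 genes therefore had a value on each of the 12 arrays, whether dim or bright.

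The study asked which TNF receptor carries the inflammatory response of the glomerulus. Glomeruli were trapped with magnetic beads from male mice 6 to 8 weeks old, cultures of 5000 were starved of serum, and all then spent 12 hours with murine TNF at 50 ng/ml. The 4 genotypes were Tnfr1,2-/- (without both receptors), Tnfr1-/- (without TNF receptor 1), Tnfr2-/- (without TNF receptor 2) and wildtype, with 3 arrays each. The mutants carried the alleles Tnfrsf1atm1Mak, Tnfrsf1btm1Mwm or both and are named B6.129 in the labels, while C57Bl/6J is given as the background strain of all 4 groups. The receptors are absent from every cell of the animal, so the preparations lacked the receptor in podocytes, endothelium, mesangium and resident leukocytes alike. Arrays of glomeruli without TNF were not analysed here, and each comparison is between glomeruli that all had received TNF. The study's text gives 3 independent preparations per genotype but not the number of mice behind each, so the p-values measure the spread between these preparations.

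CSF1 (macrophage colony-stimulating factor) and IL-34 are separate ligands of one receptor, CSF1R, and keep macrophages alive and dividing. CSF2 (granulocyte-macrophage colony-stimulating factor) activates macrophages, dendritic cells and granulocytes through a specific chain and a shared beta chain, whereas CSF3 (granulocyte colony-stimulating factor) drives the making and release of neutrophils. IL-23 is a heterodimer of the subunit encoded by Il23a and a subunit encoded by Il12b that it shares with IL-12, and it sustains T cells that make IL-17. Kidney cells themselves make CSF1 and IL-34, and TNF is a known inducer of several of these cytokines by way of NF-κB.

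The upstream sequences of Csf1 and Csf2 are shown because both had lower values on every array without TNF receptor 1 than on any array with it (for Csf1 by its brightest probe set). Of all probe sets 1.23% had this order. Il23a had the same order, and its window was not used here. A further reason is that NF-κB is the best known transcription factor downstream of that receptor. The 2 sequences are from RefSeq for the mouse build GRCm38.p6, written 5′ to 3′ on the minus strand that carries both genes, and end at the base before the annotated start of the gene. Capitals mark a match to the NF-κB consensus, which here was read on the strand opposite to the gene.
Csf1, chr3:107760470-107760719: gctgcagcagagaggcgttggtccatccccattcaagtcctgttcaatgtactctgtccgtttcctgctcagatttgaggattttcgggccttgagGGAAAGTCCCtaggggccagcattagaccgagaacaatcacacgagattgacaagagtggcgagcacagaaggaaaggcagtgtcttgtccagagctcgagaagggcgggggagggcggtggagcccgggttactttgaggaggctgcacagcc
Csf2, chr11:54249900-54250149: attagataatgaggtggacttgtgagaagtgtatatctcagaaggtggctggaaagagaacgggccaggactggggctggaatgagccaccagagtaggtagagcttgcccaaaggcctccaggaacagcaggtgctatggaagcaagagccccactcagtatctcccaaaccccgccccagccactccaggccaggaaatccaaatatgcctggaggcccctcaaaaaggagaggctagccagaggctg
The Csf1 window held 1 NF-κB match, 154 to 145 bases before the start, and 2 GC boxes (GGGCGG) at 51 to 46 and 41 to 36 bases before it. The Csf2 window held no match to the NF-κB consensus and 1 GC box on the opposite strand, 77 to 72 bases before the start. Neither held the AP-1 motif TGANTCA or TATAAA. Both strands were searched, and of 32536 such windows 7.28% held the NF-κB consensus, 33.0% the GC box, 6.73% the AP-1 motif and 12.3% TATAAA. These matches are a description of letters, and binding was not measured. For Csf1 and Csf2 only the windows shown were searched, so a site elsewhere, such as after the annotated start, would have been missed. Csf1 itself spans chr3:107741048-107760469 and Csf2 chr11:54247270-54249899. Csf3 lies at chr11:98700183-98703631, Il34 at chr8:110741829-110805949 and Il23a at chr10:128296140-128298084.

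The values are log2 signals after the robust multichip average, in which all 12 arrays were normalized together, and the medians of the arrays lay between 5.59 and 5.64. A probe set was called when the adjusted p of a linear model over all probe sets (limma, Benjamini-Hochberg) was under 0.05 and the change at least 1.5-fold. Counts at an unadjusted p under 0.05 are given as a description, since the share of all probe sets at that p was not computed. A probe set below a log2 value of 6 on all or nearly all arrays is described as dim. Tnfrsf1b, the gene of TNF receptor 2, had values of 4.95 to 5.66 on the arrays without that receptor (Tnfr1,2-/- and Tnfr2-/-) and 6.76 to 8.36 on the arrays with it. Tnfrsf1a, the gene of TNF receptor 1, had 9.11 to 10.18 on the arrays without that receptor and 10.23 to 10.82 on the arrays with it, so its probe set kept a clear signal in the mutants and is a weak check of the labels; where its probes lie relative to the deleted part was not tested. The arrays also differed in how far the 3′ signal of beta-actin exceeded its 5′ signal, a measure of how intact the labelled RNA was. The excess was 0.667 to 1.01 on 7 arrays (array set 1) and 1.82 to 2.30 on 5 arrays (array set 2: Tnfr1,2-/- replicates 2 and 3, Tnfr1-/- replicate 3, Tnfr2-/- replicate 3 and wildtype replicate 3). Markers of podocytes, endothelium, mesangium and macrophages were measured in every genotype, and the mean log2 value of the 6 podocyte genes was 9.97 to 11.51 on all arrays.

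Csf1 had lower means in glomeruli without TNF receptor 1 by each of its 4 probe sets. In whole glomeruli fewer cells that make Csf1 and less Csf1 transcript per cell cannot be told apart. The decrease was called with the brightest probe set, 1460220_a_at, in Tnfr1,2-/- glomeruli and over all arrays without Tnfr1, and with 1425155_x_at over all arrays without Tnfr1. It was called with neither of the others before the array sets were taken into account. The log2 values of 1460220_a_at were 9.15, 8.67 and 8.69 in Tnfr1,2-/- glomeruli, against 10.71, 10.66 and 10.08 in wildtype glomeruli. They were 9.20, 9.99 and 8.91 in Tnfr1-/- glomeruli and 10.96, 10.44 and 10.50 in Tnfr2-/- glomeruli. The 6 arrays without Tnfr1 all lay below the 6 arrays with it, an order that 1.23% of all probe sets had. Tnfr1-/- replicate 2 came closest to the arrays with Tnfr1. The means were 8.83 ± 0.27 in Tnfr1,2-/-, 9.37 ± 0.55 in Tnfr1-/-, 10.63 ± 0.29 in Tnfr2-/- and 10.48 ± 0.35 in wildtype glomeruli (SD, n = 3 each). Relative to wildtype, the log2 change of this probe set in Tnfr1,2-/- glomeruli was -1.65 (95% interval -2.28 to -1.02, adjusted p = 0.0262), which is 3.14-fold lower. Of all probe sets 0.451% were called lower and 0.167% higher in this comparison, against 2 of the 8 described here, both lower. In Tnfr1-/- glomeruli the change was -1.12 (interval -1.75 to -0.49) with an adjusted p of 0.203, which missed the threshold. Here 0.362% of all probe sets were called lower and 0.198% higher, against 1 of the 8. Both comparisons share the wildtype arrays. Between Tnfr1,2-/- and Tnfr1-/- glomeruli the probe set differed by -0.53 (interval -1.16 to 0.10, adjusted p = 0.98), so the call in one genotype and not in the other does not show that they differ. Between the 6 arrays without and the 6 with Tnfr1, the comparison over all 12 arrays, the change was -1.46 (interval -1.90 to -1.02, adjusted p = 0.00325), or 2.75-fold lower.

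**Figure D1:**
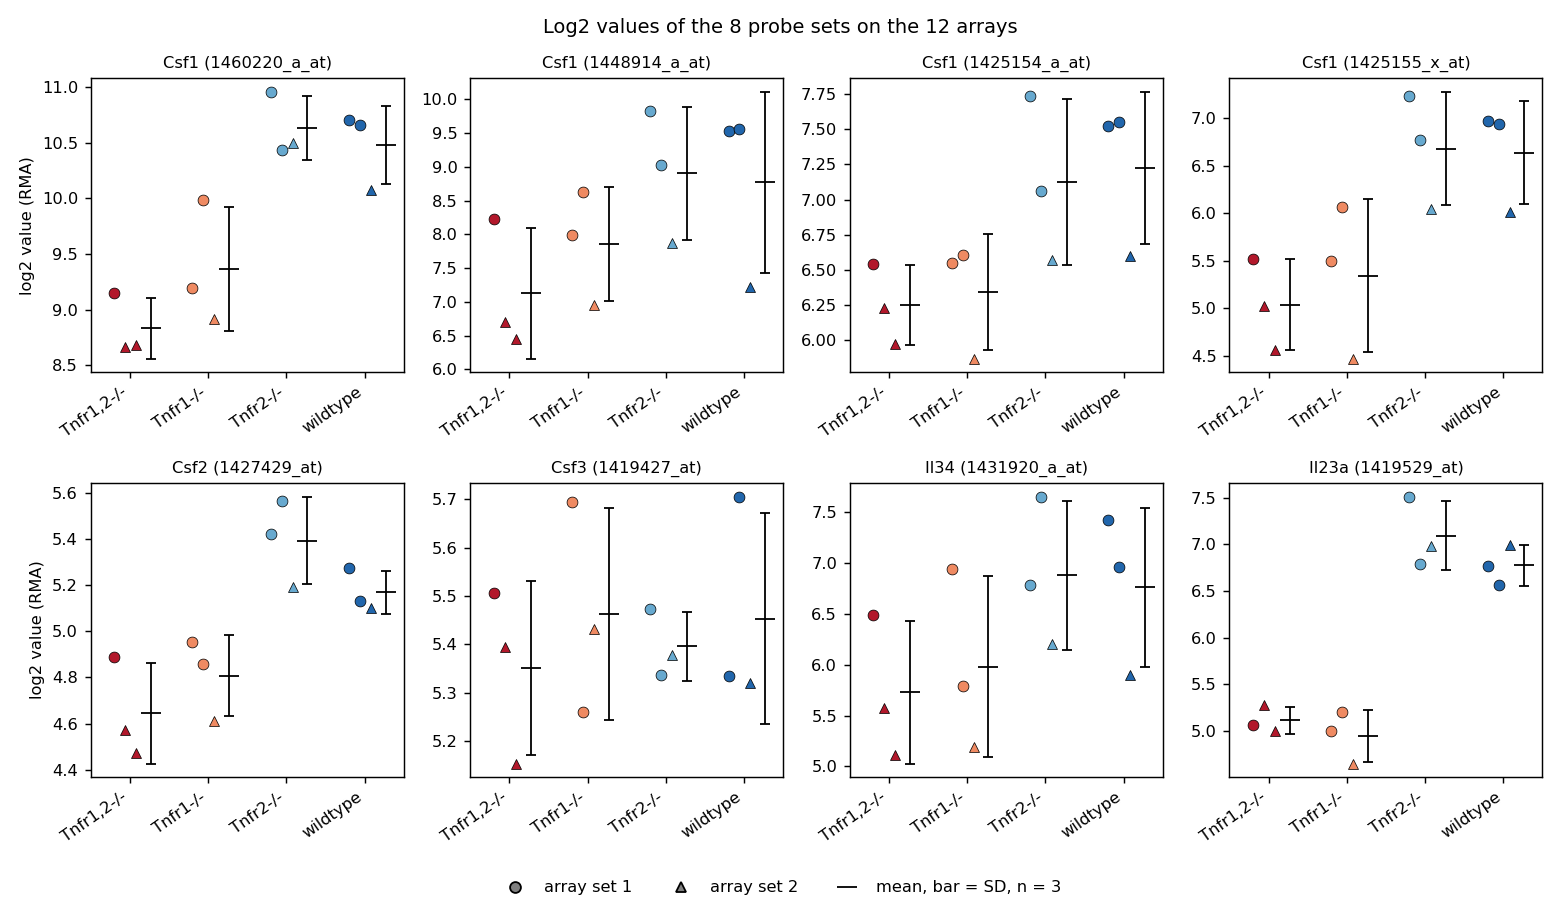
Log2 value (y axis) of each of the 8 probe sets on the 12 arrays, by genotype (x axis). Circles are arrays of set 1 and triangles arrays of set 2; the black line and bar give the mean and SD of 3 arrays. The Il23a panel shows all 6 arrays without Tnfr1 at 5.28 or below and all 6 with it at 6.56 or above, while the Csf3 values of the genotypes overlap.

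The call in Tnfr1,2-/- glomeruli depended on single arrays. Leaving out wildtype replicate 1 or 2 ended it (adjusted p = 0.135 and 0.153 in turn), and so did leaving out Tnfr1,2-/- replicate 2 or 3 (0.125 and 0.114), while the log2 change stayed between -1.85 and -1.54. It was also lost when only the 6 arrays compared were fitted (0.0603) and when the 4 Csf1 probe sets were averaged (-1.47, adjusted p = 0.239). In Tnfr1-/- glomeruli a call appeared without Tnfr1-/- replicate 2 (-1.43, adjusted p = 0.0499). The call for 1460220_a_at over all 12 arrays held with each array left out (adjusted p 0.000876 to 0.0139), and was lost when the 4 probe sets were averaged (-1.29, adjusted p = 0.0512).

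The other Csf1 probe sets had the same direction. The suffix _a_at marks probes that match transcripts of one gene, and where in Csf1 the 4 probe sets lie was not tested. The log2 values of 1448914_a_at were 8.24, 6.70 and 6.45 in Tnfr1,2-/-, 7.99, 8.63 and 6.95 in Tnfr1-/-, 9.83, 9.03 and 7.87 in Tnfr2-/-, and 9.54, 9.56 and 7.22 in wildtype glomeruli. In each genotype the lowest values were those of array set 2, and the wildtype array of that set lay below 3 of the 6 arrays without Tnfr1. Its change in Tnfr1,2-/- glomeruli relative to wildtype was -1.64 (interval -3.29 to 0.01, adjusted p = 0.738), as large as that of 1460220_a_at with a standard error of 0.747 in place of 0.285. The log2 values of 1425154_a_at were 6.54, 6.23 and 5.97 in Tnfr1,2-/-, 6.55, 6.61 and 5.87 in Tnfr1-/-, 7.74, 7.06 and 6.57 in Tnfr2-/-, and 7.52, 7.56 and 6.60 in wildtype glomeruli. The highest array without Tnfr1 and the lowest with it differed by hundredths of a log2 unit, and the 2 groups overlapped. Its change was -0.98 (interval -1.74 to -0.22, adjusted p = 0.536) in Tnfr1,2-/- glomeruli. The probe set 1425155_x_at, whose suffix marks probes that can also match other genes, had 5.52, 5.03 and 4.56 in Tnfr1,2-/-, 5.49, 6.07 and 4.47 in Tnfr1-/-, 7.23, 6.77 and 6.05 in Tnfr2-/-, and 6.97, 6.94 and 6.01 in wildtype glomeruli. Again 5 of the 6 arrays without Tnfr1 lay below all arrays with it, Tnfr1-/- replicate 2 being the exception. Its change was -1.60 (interval -2.59 to -0.62, adjusted p = 0.283) in Tnfr1,2-/- glomeruli and -1.47 over all 12 arrays (interval -2.17 to -0.77, adjusted p = 0.0482). In this comparison 0.935% of all probe sets were called lower and 0.497% higher, against 3 of the 8, all lower. That call of 1425155_x_at lay at the threshold: it was lost when any one of 8 of the 12 arrays was left out (wildtype replicates 1 and 2, Tnfr1,2-/- replicates 2 and 3, Tnfr1-/- replicates 1 and 3, Tnfr2-/- replicates 1 and 2; adjusted p 0.0809 to 0.146) and with median centring (0.0521).

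**Figure D2:**
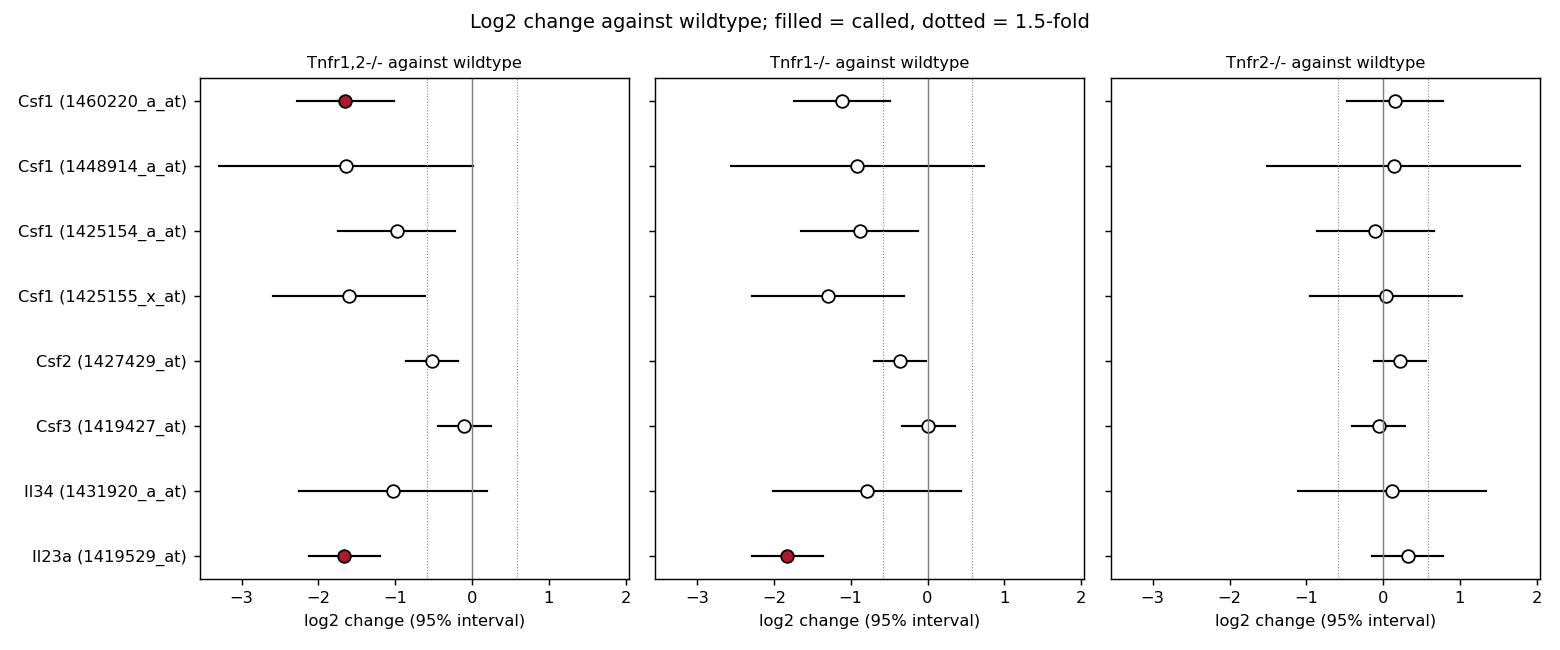
Log2 change (x axis) of each probe set in Tnfr1,2-/-, Tnfr1-/- and Tnfr2-/- glomeruli against wildtype glomeruli, with 95% intervals from the model over 12 arrays; filled circles were called and dotted lines mark 1.5-fold. The Csf1 changes in Tnfr1,2-/- glomeruli lie between -1.65 and -0.98 and differ mainly in the width of their intervals, and all intervals against wildtype in Tnfr2-/- glomeruli include 0.

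The Csf1 probe sets differed in how far the array sets stood apart. Within a genotype, arrays of set 2 differed from arrays of set 1 by -0.49 for 1460220_a_at, by -0.73 for 1425154_a_at, by -0.99 for 1425155_x_at and by -1.73 for 1448914_a_at. Over all probe sets the median of this difference was 0.06 (quartiles -0.14 and 0.23), and 3.85% fell below -1. For 1448914_a_at the difference between array sets was thus larger than that between arrays without and with Tnfr1 (-1.35). When the array set was taken as a block, the residual SD of 1448914_a_at was 0.359 in place of 1.05, and those of the other 3 were 0.225 to 0.276 in place of 0.383 to 0.622. With that block all 4 Csf1 probe sets were called lower on arrays without Tnfr1, with changes of -1.38 for 1460220_a_at (adjusted p = 0.000272), -1.31 for 1425155_x_at (0.000328), -1.06 for 1448914_a_at (0.00745) and -0.76 for 1425154_a_at (0.00589). In Tnfr1-/- glomeruli 3 of the 4 were called (-1.12, adjusted p = 0.0216; -1.30, 0.00750; -0.88, 0.0339), and 1448914_a_at was not (-0.91, 0.166). In Tnfr1,2-/- glomeruli, of which 2 of 3 arrays were in set 2, 1460220_a_at (-1.49, 0.00485) and 1425155_x_at (-1.28, 0.0107) were called. The other 2 probe sets were not called there (-1.07, 0.109 for 1448914_a_at; -0.73, 0.110 for 1425154_a_at).

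Over the 12 arrays the 4 probe sets correlated with each other at Pearson r of 0.840 to 0.964, a description of arrays that share genotypes and array sets. Inside each array set the groups did not overlap for any Csf1 probe set. The share of all probe sets without overlap inside an array set was not computed, and groups of so few arrays separate easily. The 4 probe sets also read 1 gene and are not independent of each other. In set 1 (3 arrays without and 4 with Tnfr1) 1460220_a_at had 9.15 to 9.99 without and 10.44 to 10.96 with Tnfr1, and 1448914_a_at had 7.99 to 8.63 without and 9.03 to 9.83 with it. In set 2 (3 arrays without and 2 with Tnfr1) 1460220_a_at had 8.67 to 8.91 without and 10.08 to 10.50 with Tnfr1, and 1448914_a_at had 6.45 to 6.95 without and 7.22 to 7.87 with it. Over the 4 probe sets the difference of the means was -1.28 to -0.90 within set 1, whereas within set 2 it was -1.53 to -0.56. The labels number the replicates and state no pairing. In Tnfr1-/- and wildtype glomeruli replicate 3 was the array of set 2, so replicate number and array set cannot be fully told apart. For Tnfr1-/- against wildtype glomeruli, the replicate number as a block over all 12 arrays gave calls for 1425154_a_at (-0.88, adjusted p = 0.0388) and 1425155_x_at (-1.30, 0.0152). Thereby 3 in place of 1 of the 8 probe sets were called. With that block 1460220_a_at did not pass (adjusted p = 0.0590). Among all 45037 probe sets the replicate block gave 498 calls in place of 252 in this comparison.

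**Figure D3:**
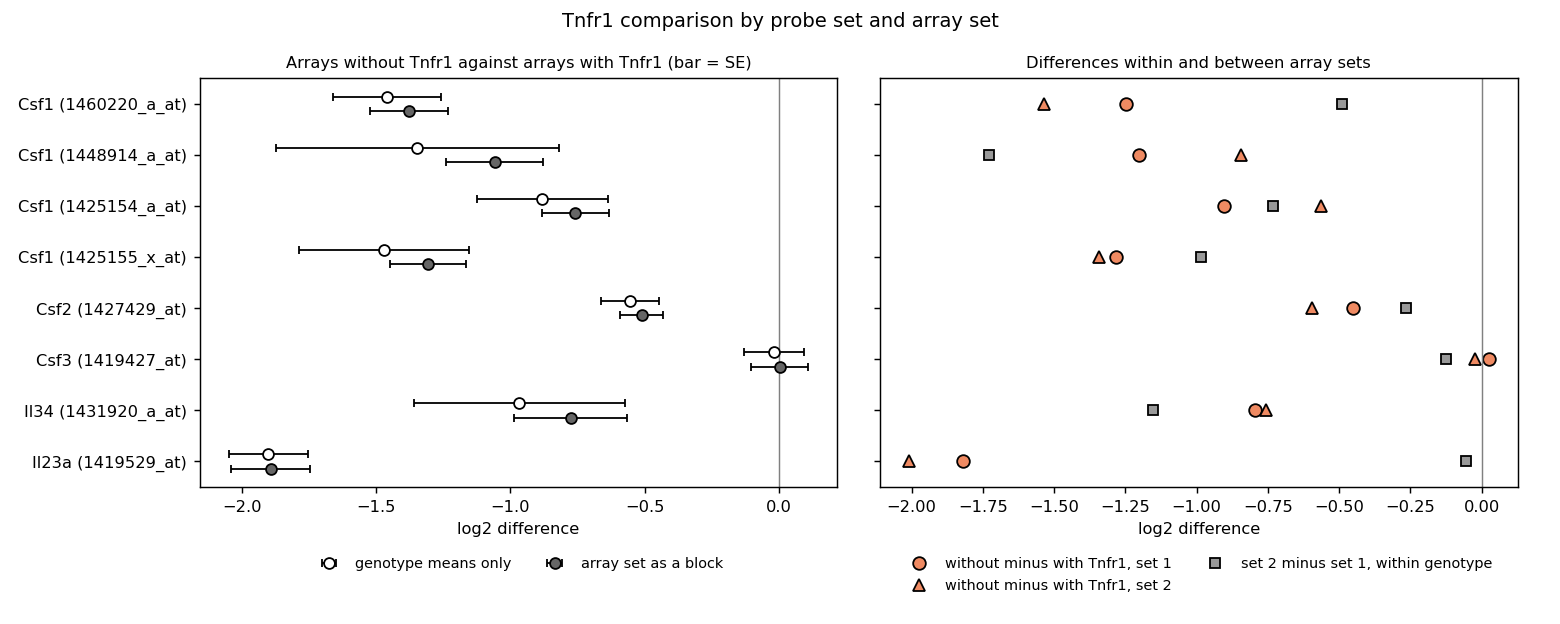
Left, log2 difference (x axis) between arrays without and with Tnfr1 for each probe set, with genotype means only (open) or with the array set as a block (filled); bars are standard errors. Right, the same difference inside array set 1 (circles) and set 2 (triangles), and the difference of set 2 minus set 1 within genotype (squares), which is -1.73 for the Csf1 probe set 1448914_a_at and -0.05 for Il23a.

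Il34, the second ligand of CSF1R, had lower means on arrays without Tnfr1 but did not pass in any comparison of genotype means. Its log2 values were 6.49, 5.58 and 5.12 in Tnfr1,2-/-, 6.94, 5.79 and 5.20 in Tnfr1-/-, 6.78, 7.65 and 6.20 in Tnfr2-/-, and 7.42, 6.96 and 5.90 in wildtype glomeruli. Replicate 3 was the lowest in every genotype, and Tnfr1-/- replicate 1 lay above 3 of the 6 arrays with Tnfr1, so that the groups overlapped. The change was -1.03 in Tnfr1,2-/- (interval -2.26 to 0.19, adjusted p = 0.793) and -0.78 in Tnfr1-/- glomeruli (interval -2.01 to 0.44, adjusted p = 1). Over all 12 arrays it was -0.97 (interval -1.83 to -0.10, adjusted p = 0.477), and -0.77 with the array set as a block (adjusted p = 0.0949). Set 2 minus set 1 within genotype was -1.15 for Il34, between those of the Csf1 probe sets 1425155_x_at and 1448914_a_at. In set 2 the arrays without Tnfr1 (5.12 to 5.58) lay below those with it (5.90 to 6.20), whereas in set 1 they overlapped (5.79 to 6.94 without, 6.78 to 7.65 with Tnfr1).

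Csf2, the granulocyte-macrophage factor, was dim on every array. Its log2 values were 4.89, 4.57 and 4.47 in Tnfr1,2-/-, 4.95, 4.86 and 4.61 in Tnfr1-/-, 5.42, 5.57 and 5.19 in Tnfr2-/-, and 5.28, 5.13 and 5.10 in wildtype glomeruli. All 6 arrays without Tnfr1 lay below all 6 with it. Of all probe sets 1.23% had this order without overlap. The change over all 12 arrays was -0.56 (interval -0.79 to -0.32, adjusted p = 0.0283), or 1.47-fold lower, under the fold that a call needs. It passed that fold without Tnfr1,2-/- replicate 1 (-0.62, adjusted p = 0.0157), Tnfr1-/- replicate 1 (-0.59, 0.0399) or Tnfr2-/- replicate 3 (-0.61, 0.0293). Changes against wildtype were -0.52 in Tnfr1,2-/- (interval -0.86 to -0.19, adjusted p = 0.333) and -0.36 in Tnfr1-/- glomeruli (interval -0.70 to -0.02, adjusted p = 0.903), neither past the test. These folds are of the signal with its background, not of the transcript.

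Csf3, the neutrophil factor, was dim as well and showed no difference beyond its spread. Its log2 values were 5.51, 5.39 and 5.15 in Tnfr1,2-/-, 5.70, 5.26 and 5.43 in Tnfr1-/-, 5.47, 5.34 and 5.38 in Tnfr2-/-, and 5.33, 5.71 and 5.32 in wildtype glomeruli. The highest and lowest arrays came from different genotypes and all ranges overlapped. The change over all 12 arrays was -0.02 (adjusted p = 0.989), and its interval of -0.26 to 0.23 lies within 1.5-fold either way. For a dim probe set that bound holds for the signal and not for the transcript.

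Il23a had the largest difference of the 5 genes between arrays without and with Tnfr1. Its log2 values were 5.07, 5.28 and 5.0 in Tnfr1,2-/- and 5.0, 5.20 and 4.65 in Tnfr1-/- glomeruli, against 6.77, 6.56 and 6.99 in wildtype glomeruli. In Tnfr2-/- glomeruli they were 7.51, 6.79 and 6.98. The arrays without Tnfr1 were all dim, and the lowest array with Tnfr1 stood more than a log2 unit above the highest without it. Of all probe sets 1.23% lay lower without overlap, by whatever distance. Relative to the same wildtype arrays, Il23a changed by -1.66 in Tnfr1,2-/- glomeruli (interval -2.12 to -1.20, 3.16-fold lower, adjusted p = 0.00392) and by -1.82 in Tnfr1-/- glomeruli (interval -2.28 to -1.36, 3.54-fold lower, adjusted p = 0.00253). The 6 arrays without Tnfr1 fell by 1.90 relative to the 6 with it (interval -2.23 to -1.58, 3.74-fold, adjusted p = 6.1e-05), and the exact permutation test of 6 against 6 arrays gave its smallest possible p of 0.00216 (two-sided, not adjusted). The calls held with each array left out, with adjusted p of up to 0.0222 in Tnfr1,2-/- and 0.0162 in Tnfr1-/- glomeruli. Unlike the Csf1 probe sets, Il23a hardly differed between the array sets (-0.05), and its difference was -1.82 in set 1 and -2.01 in set 2. With the arrays without Tnfr1 at dim values, the fold is that of the signal, background included.

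Loss of TNF receptor 2 changed none of the 8 probe sets past the test. In Tnfr2-/- against wildtype glomeruli the same test did not call Tnfrsf1b, the targeted gene, either (-2.30, 4.92-fold lower, adjusted p = 0.271). The absence of a call therefore does not show that a probe set was unchanged. In Tnfr2-/- glomeruli relative to wildtype the changes were 0.15, 0.14, -0.10 and 0.04 for the Csf1 probe sets in the order given above, with adjusted p = 1 for each. They were 0.22 for Csf2 (interval -0.11 to 0.56), -0.06 for Csf3 (-0.40 to 0.29), 0.12 for Il34 (-1.11 to 1.34) and 0.32 for Il23a (-0.14 to 0.78), also with adjusted p = 1. The Il34 interval and that of 1448914_a_at (-1.51 to 1.79) reach past 2-fold either way, so for these a change of that size could not have been told from none. Of all probe sets 0.00222% were called in this comparison, 0.0178% between arrays without and with Tnfr2, 0.00222% between Tnfr1,2-/- and Tnfr1-/- glomeruli, and 0.0% for the interaction of both losses. By limma 0 of the 8 had an unadjusted p under 0.05 in any of these 4 comparisons, and SAM called 0 of them in Tnfr2-/- glomeruli. The interaction, which asks whether loss of Tnfr1 acts differently without Tnfr2, was -0.68 for 1460220_a_at (interval -1.57 to 0.20, adjusted p = 1) and -0.16 for Il23a (interval -0.81 to 0.49, adjusted p = 1).

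Of the receptors and partner chains of these cytokines, Sdc1 passed the test with 2 of its 4 probe sets and no other gene passed with any. Of 10 listed genes 9 had a probe set of their own (Il23r had none). Reading each by its brightest probe set, 0 of 9 were called in Tnfr1,2-/- or Tnfr1-/- glomeruli or over all 12 arrays. Of all probe sets 0.451%, 0.362% and 0.935% were called lower in these comparisons, and 0.167%, 0.198% and 0.497% higher. At an unadjusted p under 0.05 there were 3 (Csf2rb, Csf2rb2 and Sdc1, all with lower values), 0 and 3 of the 9 in these comparisons, and SAM called 1 in Tnfr1,2-/- glomeruli (Csf2rb, q = 0.0323). The share of all probe sets at that unadjusted p was not computed. The median change of the 9 was -0.24, -0.13 and -0.10 in these 3 comparisons, beside 0.00 over all genes in each. Csf1r, the receptor of both CSF1 and IL-34, had 8.37 to 9.59 in Tnfr1,2-/-, 8.79 to 9.69 in Tnfr1-/-, 8.81 to 9.47 in Tnfr2-/- and 8.68 to 9.28 in wildtype glomeruli (probe set 1419872_at). The ranges overlapped, and the change over all 12 arrays was 0.04 (interval -0.48 to 0.56, adjusted p = 0.987). Its dimmer probe sets had lower means on arrays without Tnfr1 and did not pass. They changed by -0.23 (1419873_s_at, interval -0.59 to 0.13, adjusted p = 0.807) and -0.23 (1423593_a_at, interval -0.74 to 0.28, adjusted p = 0.889). Sdc1, a syndecan that binds IL-34, was 8.97 to 10.02 in Tnfr1,2-/-, 9.12 to 10.43 in Tnfr1-/-, 9.94 to 11.24 in Tnfr2-/- and 9.77 to 11.03 in wildtype glomeruli (1415943_at). The change of this brightest probe set over all 12 arrays was -1.0 (interval -1.74 to -0.26, adjusted p = 0.304). Like Csf1 it differed between array sets (-1.11), and a block for the array set gave a call (-0.81, adjusted p = 0.000683). With genotype means alone, the Sdc1 probe sets 1415944_at (-0.64, interval -0.92 to -0.35, adjusted p = 0.0353) and 1437279_x_at (-0.72, interval -1.02 to -0.42, adjusted p = 0.0251) were called lower over all 12 arrays. Arrays without Tnfr1 had 9.20 to 9.86 and 9.16 to 9.84 in these, and arrays with it 9.92 to 10.53 and 10.03 to 10.44, so neither overlapped. Of all probe sets 1.23% lay lower without overlap in this comparison. The call of 1415944_at was lost without any one of 9 arrays (all but Tnfr1-/- replicate 2, Tnfr2-/- replicate 3 and wildtype replicate 3; adjusted p up to 0.112), with a mean-variance trend (0.0557), and with the array set as a block, where the change was under 1.5-fold (-0.58). That of 1437279_x_at was lost without any one of 7 arrays (Tnfr1,2-/- replicate 2, Tnfr1-/- replicates 2 and 3, Tnfr2-/- replicates 1 and 2, wildtype replicates 1 and 2; adjusted p up to 0.0835). The remaining probe set, 1448158_at, did not pass (-1.24, interval -3.13 to 0.66, adjusted p = 0.797). Ptprz1, a receptor phosphatase that also binds IL-34, was dim with 3.6 to 5.64 in Tnfr1,2-/-, 3.76 to 4.57 in Tnfr1-/-, 3.42 to 4.07 in Tnfr2-/- and 3.73 to 3.88 in wildtype glomeruli, and did not pass (0.54 over all 12 arrays, adjusted p = 0.692).

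Csf2rb, the shared beta chain of the CSF2, IL-3 and IL-5 receptors, had the smallest adjusted p of these genes when each was read by its brightest probe set. Its log2 values were 6.89, 6.90 and 6.96 in Tnfr1,2-/-, 7.40, 7.88 and 7.18 in Tnfr1-/-, 7.64, 8.26 and 7.97 in Tnfr2-/-, and 7.55, 8.04 and 7.73 in wildtype glomeruli. The Tnfr1,2-/- arrays lay below all others, whereas the Tnfr1-/- arrays reached into the range of wildtype. The change was -0.86 in Tnfr1,2-/- glomeruli (interval -1.32 to -0.40, adjusted p = 0.162) and -0.67 over all 12 arrays (interval -0.99 to -0.34, adjusted p = 0.0555). Under 8 alternatives it was called over all 12 arrays, among them leaving out Tnfr1-/- replicate 2 (-0.77, adjusted p = 0.0211) or Tnfr2-/- replicate 1 (-0.75, 0.0454), a block for array set (-0.65, 0.0377), array weights (-0.69, 0.0297) and fitting 1 probe set per gene (-0.67, 0.0329). In Tnfr1,2-/- glomeruli array weights gave a call as well (-0.92, 0.0314). The dimmer Csf2rb probe set, 1421326_at, changed by -1.305 in Tnfr1,2-/- glomeruli (adjusted p = 0.488) and by -0.99 over all 12 arrays (adjusted p = 0.247), and did not pass. Csf2rb2, a close paralogue that serves the IL-3 receptor in mice and shares much of its sequence with Csf2rb, had 5.01 to 5.28 in Tnfr1,2-/-, 5.44 to 6.46 in Tnfr1-/-, 6.15 to 6.29 in Tnfr2-/- and 5.70 to 6.17 in wildtype glomeruli, with a change of -0.59 over all 12 arrays (adjusted p = 0.194). Without Tnfr1-/- replicate 2 it was called over all 12 arrays (-0.75, adjusted p = 0.00607) and in Tnfr1,2-/- glomeruli (-0.78, 0.0455). Signal of the 2 paralogues may not be fully separate. Csf2ra, the specific chain of the CSF2 receptor, changed by -0.08 (interval -0.49 to 0.34). Csf3r, the CSF3 receptor, was dim (4.81 to 5.65 on all arrays) and changed by -0.22 (interval -0.49 to 0.04). Il12rb1, a chain of the IL-23 receptor, was also dim and changed by 0.01 (interval -0.25 to 0.27). Il12b, whose product pairs with that of Il23a, had 3.53 to 3.81 on arrays without Tnfr1 and 3.66 to 3.83 on arrays with it, among the dimmest signals here. Its change of -0.10 (interval -0.27 to 0.07) did not pass, and its signal was dim in all 4 genotypes.

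**Figure D4:**
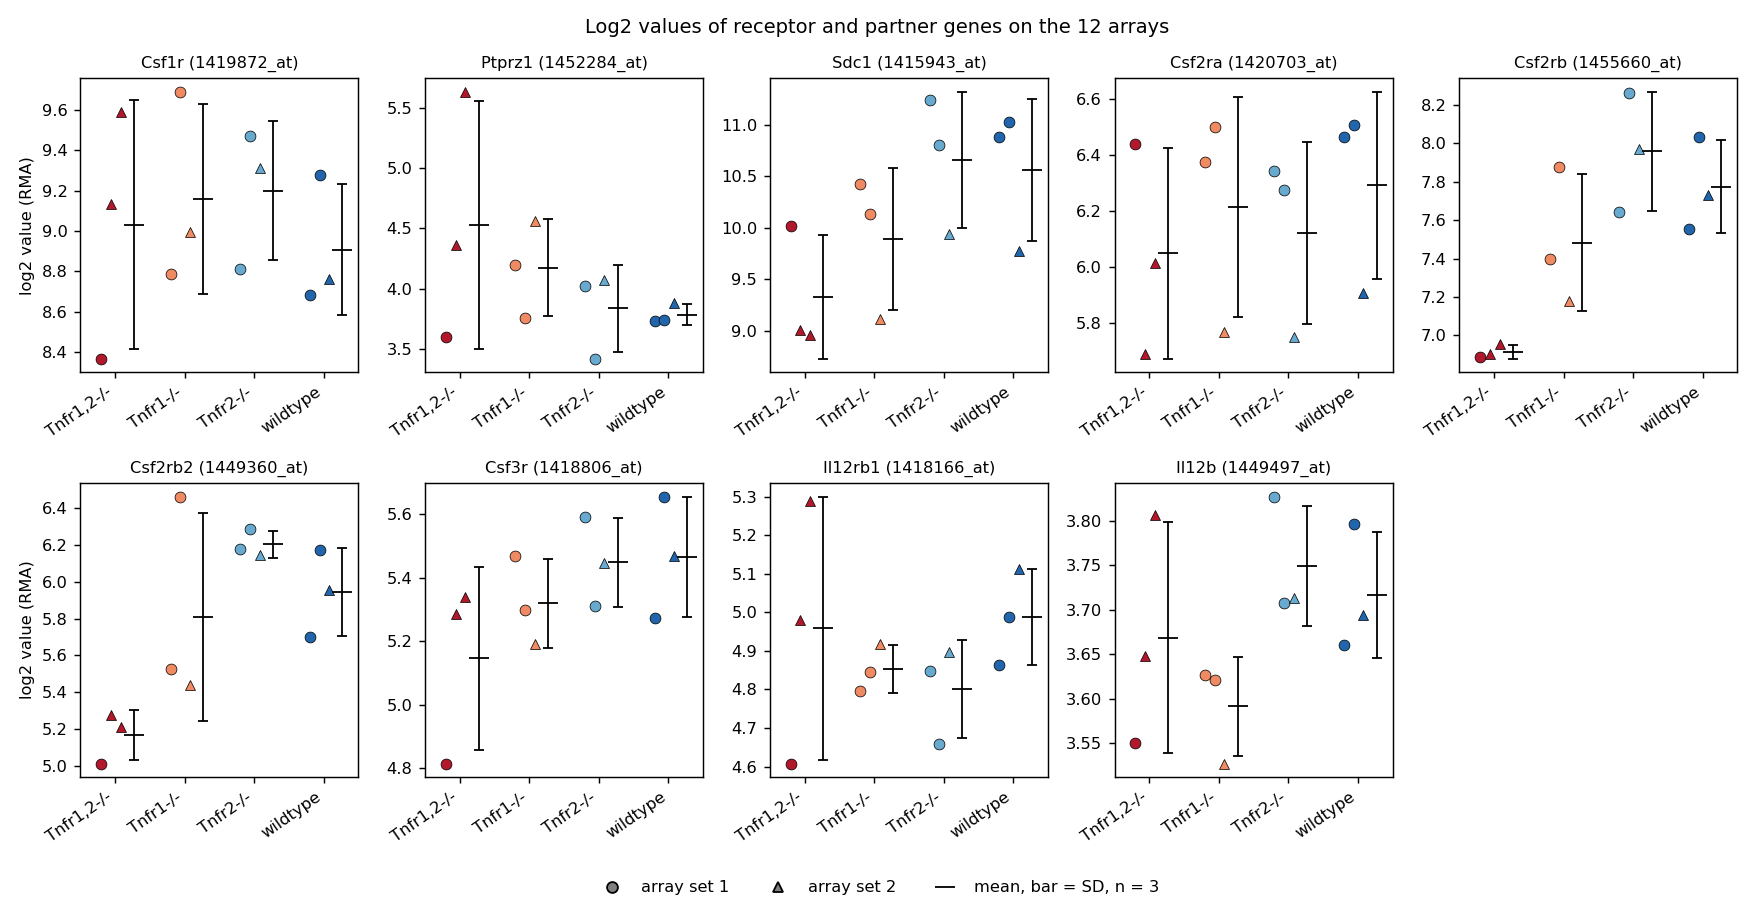
Log2 value (y axis) of the brightest probe set of each receptor or partner gene on the 12 arrays, by genotype (x axis), with symbols and bars as in the plot of the 8 probe sets. The Tnfr1,2-/- arrays of Csf2rb lie at 6.89 to 6.96, below all others, and Il12b lies between 3.53 and 3.83 throughout.

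Few of the genes that act after these receptors were called. Of 13 measured JAK-STAT genes 1 was called, Cish, a feedback inhibitor that cytokines acting through STAT5 induce. Cish averaged 7.62 ± 0.04 in Tnfr1,2-/-, 7.88 ± 0.23 in Tnfr1-/-, 8.57 ± 0.25 in Tnfr2-/- and 8.53 ± 0.05 in wildtype glomeruli (SD, n = 3 each). It fell by 0.90 in Tnfr1,2-/- glomeruli (interval -1.24 to -0.57, adjusted p = 0.0240) and by 0.80 over all 12 arrays (interval -1.04 to -0.56, adjusted p = 0.00296), whereas -0.65 in Tnfr1-/- glomeruli missed the threshold (adjusted p = 0.145). The call in Tnfr1,2-/- glomeruli was lost when any one of the 3 Tnfr1,2-/- arrays (adjusted p 0.0673 to 0.0925) or of the 3 wildtype arrays (0.0793 to 0.131) was left out, with a mean-variance trend (0.0747) and with only the arrays compared (0.0514). Socs3 (1.02, adjusted p = 0.445) and Pim1 (-0.76, 0.547) did not pass in Tnfr1,2-/- glomeruli. The median change of the 13 genes over all 12 arrays was -0.19. By limma 4 of the 13 had an unadjusted p under 0.05 in Tnfr1,2-/- glomeruli, 2 in Tnfr1-/- glomeruli and 5 over all 12 arrays. Of all probe sets 0.451% were called lower in Tnfr1,2-/- glomeruli and 0.935% over all 12 arrays. No gene was called among 3 measured IL-12 family genes, 7 other haematopoietic growth factors and 5 genes of the IL-17 axis in Tnfr1,2-/- glomeruli, where limma gave 1, 1 and 0 of them an unadjusted p under 0.05 and SAM called 0. Ebi3 had the smallest p of the first (-0.52 in Tnfr1,2-/- glomeruli, adjusted p = 0.438), Kitl, the ligand of KIT, of the second (0.96, 0.569) and Il17a of the third (0.27, 0.833).

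The cells that answer these cytokines were read from their markers. None of 16 macrophage genes was called over all 12 arrays (3 at an unadjusted p under 0.05 by limma, median change -0.04, 9 of 16 below 0), and their mean log2 value ran from 7.24 to 7.68 in Tnfr1,2-/-, 7.38 to 8.25 in Tnfr1-/-, 7.55 to 8.26 in Tnfr2-/- and 7.36 to 7.88 in wildtype glomeruli. In Tnfr1,2-/- glomeruli the median change of the 16 was -0.21, with 9 of 16 below 0 and 3 at an unadjusted p under 0.05 by limma. The single losses went the other way against wildtype. The median was 0.24 in Tnfr1-/- and 0.28 in Tnfr2-/- glomeruli, each with 3 of 16 below 0. In Tnfr1,2-/- glomeruli 1 of the 16, Mertk, was called higher by SAM (1.28, q = 0.0126) and with only the arrays compared (adjusted p = 0.0434). The neutrophil genes were dim, with a mean of 4.20 to 4.6 in Tnfr1,2-/-, 4.40 to 4.57 in Tnfr1-/-, 4.76 to 4.84 in Tnfr2-/- and 4.71 to 4.87 in wildtype glomeruli, and 2 of 8 were called lower on arrays without Tnfr1. These were Camp, an antimicrobial peptide (-1.78, adjusted p = 0.00267), and S100a8, a calcium-binding protein of myeloid cells (-1.22, adjusted p = 0.00487). The neutrophil list did not move as a whole, with a median change of 0.005 over all 12 arrays and 4 of 8 genes below 0. Of all probe sets 0.935% were called lower in this comparison. Of the intrinsic cells, 0 of 6 podocyte, 0 of 9 endothelial and 1 of 7 mesangial genes were called, the last being Itga8 (0.98 higher on arrays without Tnfr1, adjusted p = 0.00504). Of all probe sets 0.497% were called higher in this comparison. By limma 1, 5 and 1 of these had an unadjusted p under 0.05, and the median change of the endothelial genes was 0.37. Their mean log2 value was 9.09 to 9.70 in Tnfr1,2-/-, 9.32 to 10.12 in Tnfr1-/-, 9.20 to 9.70 in Tnfr2-/- and 8.83 to 9.24 in wildtype glomeruli. Relative to wildtype, loss of only TNF receptor 2 also went with higher endothelial values (median change 0.54, 0 of 9 genes below 0). By limma 4 of the 9 had an unadjusted p under 0.05 there. The median was 0.70 with loss of only TNF receptor 1 (0 of 9 below 0) and 0.57 without both (3 of 9 below 0). For the interaction it was -0.93, with 9 of 9 below 0. Higher endothelial values than in wildtype were therefore not particular to loss of Tnfr1. With the array set as a block, under which all 4 Csf1 probe sets were called lower, 2 endothelial genes were called higher over all 12 arrays, Flt1 (0.84, adjusted p = 0.0161) and Plvap (0.83, 0.0244), and 2 in Tnfr1-/- glomeruli, Flt1 (1.19, 0.0275) and Kdr (1.09, 0.0393). Flt1 was called over all 12 arrays also without wildtype replicate 3 (1.12, 0.0141), and Plvap without Tnfr1-/- replicate 3 (0.91, 0.0346). In Tnfr1,2-/- glomeruli Flt1 was called without wildtype replicate 3 (1.60, 0.0386), and in Tnfr1-/- glomeruli with the replicate block (1.19, 0.0320). The choice of Mertk, Flt1, Plvap and Kdr for naming came after seeing their values. Of 8 lymphocyte and 8 tubule genes 0 were called, and 1 of each list had an unadjusted p under 0.05. The part of these lists in the differences of Csf1, Csf2 and Il23a was not tested.

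Genes with the most similar pattern were sought for the 3 members that were not dim, by Pearson correlation over the 12 arrays among 11328 genes. For Csf1 (1460220_a_at) they were Slc43a3 (r = 0.987), Fam20c (0.986) and Pnkd (0.985). Slc43a3, a purine base transporter, had 9.33 to 9.40 in Tnfr1,2-/- and 9.44 to 10.27 in Tnfr1-/- glomeruli, against 10.51 to 10.93 in Tnfr2-/- and 10.50 to 10.75 in wildtype glomeruli, and so shared the order of the genotypes. For Il23a they were Pnp (0.975), Traf1 (0.974) and Gsap (0.968). Traf1, a TNF receptor-associated adaptor, averaged 5.92 ± 0.31 in Tnfr1,2-/- and 5.91 ± 0.29 in Tnfr1-/-, against 8.41 ± 0.10 in Tnfr2-/- and 8.22 ± 0.18 in wildtype glomeruli (SD, n = 3 each). For Il34 they were 3110082I17Rik (0.972), Dnph1 (0.968) and Fuom (0.959). The ranges of Dnph1 overlapped between arrays without Tnfr1 (6.15 to 7.13) and with it (6.48 to 7.30), as those of Il34 did. All points share the genotypes and array sets, so these correlations describe the arrays and carry no test.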

How the data were processed

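RNA of 12 TNF-exposed glomerular cultures was hybridized to Affymetrix whole-genome mouse arrays. The authors normalized all arrays together with RMA Express, so the deposited values are log2 signals (1.93 to 14.1), used unchanged. Controls (64 probe sets) were left out. limma 3.58.1 (R 4.3.3; lmFit, eBayes, 8 residual degrees of freedom) was fitted to 45037 probe sets with 4 genotype means, and p-values were adjusted by Benjamini-Hochberg over all probe sets of a comparison. limma stood in for the authors' SAM, which was rerun from its description as an alternative. The fit was tested on simulated data. The number of arrays limits precision: 3 against 3 cannot give an exact p under 0.1.

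Genes, lists and comparisons were chosen with earlier results of these data known. Named were all probe sets of the 5 genes, the brightest probe set of each receptor or partner, Tnfrsf1a and Tnfrsf1b, the genes of smallest p in other lists, and the 3 most correlated genes of each member that was not dim (log2 of 6 on at least 3 arrays). Array sets were split at the widest gap of the beta-actin 3′ minus 5′ difference. Same-numbered arrays deviated together in Tnfr1-/- and wildtype glomeruli (correlations 0.31 to 0.71) and in Tnfr2-/- and wildtype glomeruli (0.32 to 0.79), but not in Tnfr1,2-/- and wildtype glomeruli (-0.17 to 0.57). The promoter windows are from RefSeq; those of Csf3, Il34 and Il23a were not used here.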

Additional observations from a re-analysis of the deposited data

How the results depend on the processing

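Il23a kept its decrease and its call in Tnfr1,2-/- and Tnfr1-/- glomeruli and over all 12 arrays under every alternative run, and no probe set of the 5 genes changed direction where it was called. The number of the 8 probe sets called in Tnfr1,2-/- glomeruli, 2, was 1 when only the arrays compared were fitted, 6 with array weights and 4 with the replicate block, and 1 to 2 with each array left out. In Tnfr1-/- glomeruli 1 was called, but 2 with array weights, 3 with the replicate block, 4 with the array set as a block, and 1 to 2 with each array left out. Over all 12 arrays 3 were called, but 6 with array weights, 6 with the replicate block, 5 with the array set as a block, and 2 to 4 with each array left out. With the replicate block Il34 was called over all 12 arrays (-0.97, adjusted p = 0.0399), and with array weights so was Csf2 (-0.59, 0.00394); the cause was not tested. The replicate block, for which 1 of the 3 pairs of Tnfr1,2-/- and wildtype arrays did not deviate together, raised the calls among all probe sets there to 767 against 278. The other counts were 1112 with array weights (556 lower and 556 higher, against 203 lower and 75 higher), 492 with the array set as a block and 144 with only the arrays compared. In Tnfr1-/- glomeruli 252 were called, against 99 with only the arrays compared, 414 with array weights, 498 with the replicate block and 546 with the array set as a block. Over all 12 arrays 645 were called, against 1040, 1150 and 1007 with the last 3 settings, 401 of 18193 genes when probe sets were averaged by gene and 396 at 2-fold. With each array left out these counts were 138 to 300 in Tnfr1,2-/- glomeruli, 86 to 287 in Tnfr1-/- glomeruli and 475 to 689 over all 12 arrays. They fell by over 1.5 times in Tnfr1,2-/- glomeruli without wildtype replicate 1 (173) or 2 (138) or Tnfr1,2-/- replicate 2 (167), and in Tnfr1-/- glomeruli without wildtype replicate 1 (124), 2 (86) or 3 (149) or Tnfr1-/- replicate 1 (152) or 3 (167). With the replicate block Csf2rb (adjusted p = 0.00823), Csf2rb2 (0.0394), the brightest Sdc1 probe set (0.00422), 2 endothelial genes (Flt1 and Plvap, higher) and 3 macrophage genes (Cd14, Lyz2 and C1qa, lower) were called over all 12 arrays, and Csf2rb (0.0246), Sdc1 (0.0175), Flt1 and Lyz2 in Tnfr1,2-/- glomeruli. SAM and a fit of only the arrays compared have no form for the comparison over 12 arrays. Csf2 and Csf3 lay near background, so small changes of their transcripts may have been missed.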
